A study of Mus musculus with 10 samples.

Results

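Chemokines are small secreted or membrane-bound proteins that direct the movement of leukocytes through G protein-coupled receptors. In the kidney they are made by tubular epithelium, endothelium, stromal cells and resident immune cells, and several are known to increase in acute injury and in fibrosis. Here 10 chemokine genes were followed in the comparison of kidneys from mice given vehicle with kidneys from mice given quinolinic acid. They are Ccl2, Ccl5, Ccl7, Ccl28, Cxcl1, Cxcl9, Cxcl10, Cxcl12, Cxcl16 and Cx3cl1, out of 27876 gene symbols in the authors' deposited table. All 10 were found by symbol, with 22 of the 85107 transcripts, and each gene stands by its transcript of highest mean level. The members were picked by name, but with earlier results of these data known.

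RNA came from whole kidney of wild-type mice on day 14. One group of 5 received vehicle, and the other group of 5 received quinolinic acid, a metabolite of tryptophan, at 0.5 g/L in drinking water. The mice were a chosen subset, described as representative of their group, and all 10 libraries carry 1 batch label. Strain, sex, age and any kidney injury are not stated in the labels. Each transcript has 1 deposited comparison between the groups: a log2 fold change (called the log2 difference below), a mean level over the libraries as log2 CPM, the read count scaled to library size, a likelihood ratio, a p and an adjusted p. Without values for each library, neither their depth nor the spread between mice is known here. The interval beside each log2 difference is an approximate 95% interval worked out from that difference and its likelihood ratio. Which group is the numerator is not named in the header, so signs are given as deposited and carry no direction relative to quinolinic acid. In whole tissue, fewer cells of a type and less RNA per cell cannot be told apart.

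The family is named from the spacing of the first cysteines of the mature protein. These cysteines form disulfide bonds that hold the fold, and the spacing sorts the ligands into classes that bind different receptors. The coding stretch around them is shown because it defines these classes, although no value below is summarized by class. It comes from the GENCODE vM21 transcript of each gene (GRCm38, the assembly of mm10), 5′ to 3′ in the sense of the gene, with the codons of the first pair of cysteines in capitals.
Ccl2: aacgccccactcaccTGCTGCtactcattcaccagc
Ccl7: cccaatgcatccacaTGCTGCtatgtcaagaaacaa
Ccl5: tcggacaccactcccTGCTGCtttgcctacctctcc
Ccl28: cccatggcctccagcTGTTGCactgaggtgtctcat
Cxcl1: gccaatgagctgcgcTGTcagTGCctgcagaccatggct
Cxcl9: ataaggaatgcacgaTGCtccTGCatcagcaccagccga
Cxcl10: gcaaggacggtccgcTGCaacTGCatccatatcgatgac
Cxcl12: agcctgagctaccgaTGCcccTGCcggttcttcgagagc
Cxcl16: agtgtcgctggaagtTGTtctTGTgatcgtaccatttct
Cx3cl1: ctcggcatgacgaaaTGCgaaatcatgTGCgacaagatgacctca
In the 4 Ccl genes the cysteine codons are adjacent, with 0 codons between them. In the 5 Cxcl genes 1 codon lies between them, and in Cx3cl1 there are 3. Each stretch was located by searching the coding sequence for the spacing of the gene's named class, so these counts follow from the search. No intron interrupts any of these stretches. Their positions in mm10 are chr11:82036491-82036526 for Ccl2, chr11:82046523-82046558 for Ccl7, chr11:83529227-83529262 for Ccl5 and chr13:119645877-119645912 for Ccl28. Those of the Cxcl genes are chr5:90891481-90891519 for Cxcl1, chr5:92326827-92326865 for Cxcl9, chr5:92348166-92348204 for Cxcl10, chr6:117171493-117171531 for Cxcl12 and chr11:70459112-70459150 for Cxcl16. The stretch of Cx3cl1 lies at chr8:94778036-94778080. Ccl5, Cxcl9, Cxcl10 and Cxcl16 are on the minus strand and the other 6 on the plus strand. The coding sequences run from 89 codons in Cxcl12-202 to 395 in Cx3cl1-201, because Cx3cl1 encodes the chemokine on a long stalk with a membrane anchor. Cxcl16 is built in the same way and has 246 codons.

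All 10 chemokines were measured at a mean of at least 1 CPM. Longer transcripts collect more reads, so levels are compared per kilobase of transcript, as the CPM of the authors' deposited table divided by length. Highest were the membrane-anchored chemokines, Cxcl16 at 25.4 and Cx3cl1 at 21.5 CPM per kilobase. The stromal chemokine Cxcl12 followed at 11.9 CPM per kilobase. Ccl5 at 8.45, Cxcl10 at 6.77, Cxcl1 at 5.18, Ccl2 at 4.87 and Ccl7 at 4.72 CPM per kilobase formed a middle range. Ccl28 at 1.44 and Cxcl9 at 1.08 CPM per kilobase were lowest, so the range from Cxcl16 to Cxcl9 was 23.5-fold. These are means over both groups without an error, and whether neighbours in this order differ was not tested. The order also depends on the transcript chosen. The coding Ccl2-201 stood at 6.42 CPM per kilobase, above Cxcl1, while the 4 Cxcl12 transcripts ranged from 4.82 to 18.2 CPM per kilobase.

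**Figure D1:**
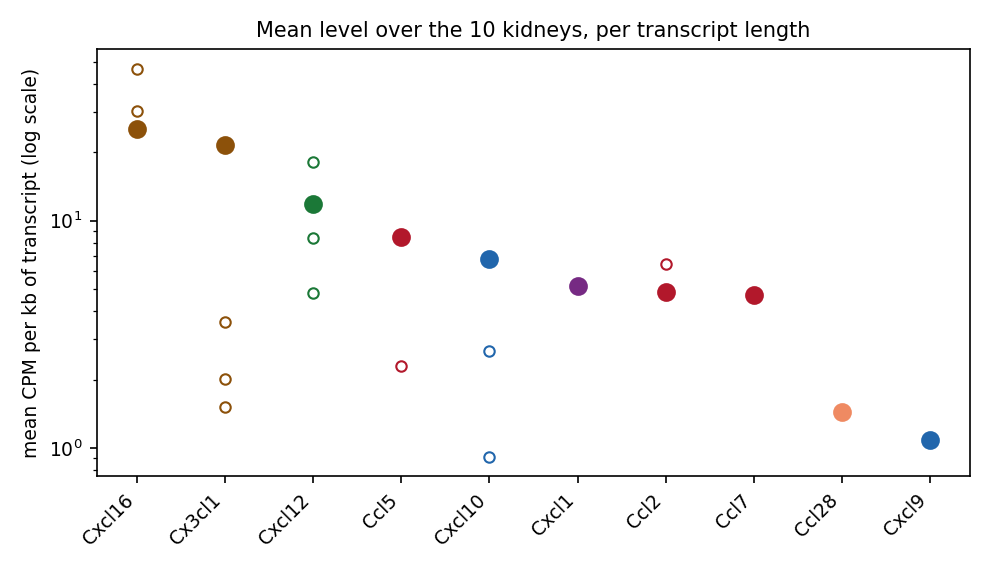
Mean level of each chemokine transcript over the 10 kidneys, in CPM per kilobase of transcript on a log axis. Filled points are the transcript that stands for the gene and open points its other transcripts. Among the filled points Cxcl16, Cx3cl1 and Cxcl12 lead at 25.4, 21.5 and 11.9, and Cxcl9 is lowest at 1.08. Open points of Cxcl16 lie higher, at 46.6 and 30.4, and 1 of Cxcl10 lies lower, at 0.915.

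No chemokine gene was called. None of the 10 genes, and none of their 22 transcripts, reached an adjusted p under 0.05 in the authors' likelihood-ratio test (edgeR), against 0.0141% of all transcripts (12 of 85107). At an adjusted p under 0.1 the count was also 0, against 0.0258% of all transcripts. It was 0 again at an unadjusted p under 0.05, which 6.08% of transcripts, 5.12% of genes and 4.09% of genes of at least 1 CPM reached. In the authors' deposited table the 22 transcripts had adjusted p of 0.794 or more. For 9 of the 10 genes the log2 difference lay within 0.3 of 0, from -0.26 to 0.18, and Cxcl1 stood apart at 0.64.

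Positive and negative signs were equal in number among the chemokines, 5 and 5, with a median log2 difference of 0.0037. Among the 13115 genes of at least 1 CPM, 71.8% had a positive sign and the median was 0.077. With the trend of the log2 difference on transcript length and level removed over all genes, the sign was positive for 2 chemokines and negative for 8. Their median was then -0.12, and that of all genes -0.013. The share of all genes with a positive sign after this removal was not counted, and the 71.8% above holds only for values as deposited. A p above the threshold does not show that the groups were alike, and the intervals give the sizes that the data leave. For 8 genes the interval stayed within 1 of 0 on the log2 scale, for 5 it stayed within 0.5, and for all 10 it included 0.

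**Figure D2:**
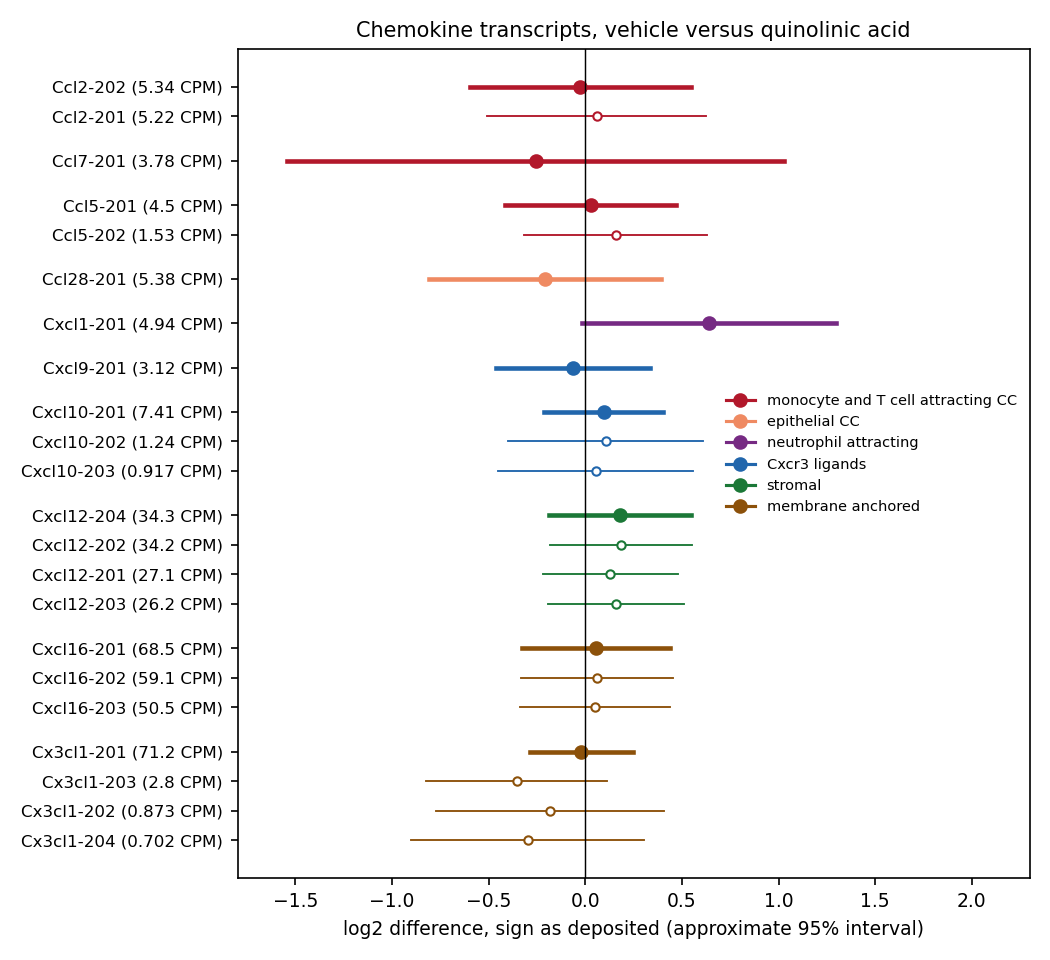
Log2 difference of each of the 22 chemokine transcripts with its approximate 95% interval, vehicle versus quinolinic acid, with the sign as deposited. Filled points and thick lines are the transcript that stands for the gene, and mean CPM is given beside each name. Every interval includes 0, that of Ccl7 is widest and Cxcl1 lies farthest from 0, at 0.64.

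Ccl2 and Ccl7, the monocyte chemoattractants MCP-1 and MCP-3, are neighbours on chromosome 11. Ccl2 (82035610 to 82037450, mm10) and Ccl7 (82045712 to 82047525) are both on the plus strand. Both bind Ccr2, the receptor that brings inflammatory monocytes out of marrow and into tissue. By the authors' deposited table, Ccl2 had a mean of 5.34 CPM and a log2 difference of -0.027 (interval -0.60 to 0.55), with p = 0.928. This value belongs to Ccl2-202, an intron-retaining transcript. The coding Ccl2-201, at 5.22 CPM, stood at 0.059 (-0.51 to 0.63) in the authors' deposited table. The pair had nearly the same level and opposite signs, both close to 0. Ccl7 had a mean of 3.78 CPM and a log2 difference of -0.26, with p = 0.696, by the authors' deposited table. Its interval ran from -1.54 to 1.03, or from 0.343 to 2.04 as a fold, and was the widest of the 10 genes.

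Ccl5 (RANTES), made by T cells, NK cells and injured epithelium, attracts T cells and monocytes, and Ccr1 is among the receptors it binds. It lies on chromosome 11 (83525778 to 83530518, mm10). Its mean was 4.50 CPM and its log2 difference 0.028 (interval -0.41 to 0.47), with p = 0.901, by the authors' deposited table. The intron-retaining Ccl5-202, at 1.53 CPM, stood at 0.16 (-0.32 to 0.63) in the authors' deposited table. Ccl28, a mucosal epithelial chemokine that attracts cells bearing Ccr10 or Ccr3, lies on chromosome 13 (119623819 to 119654359). The 1 transcript of Ccl28 had a mean of 5.38 CPM and a log2 difference of -0.21 (-0.81 to 0.39), with p = 0.499, by the authors' deposited table.

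Cxcl1 (KC), a neutrophil attractant that acts through Cxcr2 and is known to be induced in injured tubules, had the largest log2 difference of the 10 genes. It lies on chromosome 5 (90891241 to 90893115, mm10), and its 1 measured transcript has 4 exons. By the authors' deposited table its mean was 4.94 CPM and its log2 difference 0.64 (interval -0.015 to 1.30), a 1.56-fold difference with p = 0.0554. Cxcl1 did not pass: its adjusted p was 0.794 in the authors' table (edgeR). Short transcripts had more positive values as a whole in these data, with a median log2 difference of 0.18 among the 860 genes of at least 1 CPM and under 1000 nt, and Cxcl1 has 953 nt. The shorter Ccl5 (532 nt) and Ccl7 (801 nt) stood at 0.028 (-0.41 to 0.47) and -0.26 (-1.54 to 1.03), and both intervals include that median. Removing the trend on length and level left Cxcl1 a log2 difference of 0.47.

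Cxcl9 (MIG) and Cxcl10 (IP-10) are induced by interferon gamma and recruit activated T cells and NK cells through Cxcr3. Cxcl9 (chromosome 5, 92321347 to 92328079, mm10) and Cxcl10 (92346638 to 92348882) are both on the minus strand, 18558 bases apart. Cxcl9 had a mean of 3.12 CPM and a log2 difference of -0.065 (interval -0.46 to 0.33), with p = 0.748, by the authors' deposited table. Cxcl10, at 7.41 CPM, stood at 0.095 (-0.21 to 0.40), with p = 0.547, in the authors' deposited table. As folds these intervals run from 0.725 to 1.26 for Cxcl9 and from 0.862 to 1.32 for Cxcl10. The 3 Cxcl10 transcripts spanned 0.053 to 0.10. Exons of Cxcl10 share 133 bases with Art3 on the opposite strand, and the sources used here do not give the strand setting of the counting.

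Cxcl12 (SDF-1), the constitutive chemokine of stromal and endothelial cells, retains progenitors and lymphocytes through Cxcr4 and is scavenged by Ackr3. It is represented by the intron-retaining Cxcl12-204 on chromosome 6 (117168577 to 117176127, mm10). By the authors' deposited table its mean was 34.3 CPM and its log2 difference 0.18 (interval -0.19 to 0.55), with p = 0.338. All 4 Cxcl12 transcripts had a positive sign, from 0.13 to 0.19, and the coding Cxcl12-202 had nearly the same mean level, 34.2 CPM. Since transcripts of a gene share reads, these are not separate measurements.

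Cxcl16 and Cx3cl1 (fractalkine) are displayed on the cell surface, where they act as adhesion molecules, and are shed by the metalloproteases ADAM10 and ADAM17. Cx3cl1 (chromosome 8, 94772009 to 94782427, mm10) had a mean of 71.2 CPM and a log2 difference of -0.021 (interval -0.29 to 0.24), with p = 0.879, by the authors' deposited table. As a fold this interval runs from 0.820 to 1.18, the narrowest of the 10. Its 3 minor transcripts, from 0.702 to 2.80 CPM, all had negative signs in the authors' deposited table, and the lowest was Cx3cl1-203 at -0.36 (-0.82 to 0.11). Cxcl16 (chromosome 11, 70453983 to 70459984) had a mean of 68.5 CPM and a log2 difference of 0.057 (-0.33 to 0.44), with p = 0.772, by the authors' deposited table. Its 3 transcripts spanned 0.048 to 0.059. Exons of Cxcl16 share 552 bases with the less abundant Zmynd15 (6.85 CPM) on the opposite strand. The genes of the shedding enzymes stood at 0.0060 (-0.27 to 0.29) for Adam10 and -0.034 (-0.27 to 0.20) for Adam17 in the authors' deposited table.

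The log2 differences of most of the chemokines had larger errors than the median gene of their level class, 1 to 10 or 10 to 100 CPM. Their approximate standard errors ranged from 0.14 for Cx3cl1 to 0.66 for Ccl7, with a median of 0.21. The median error was 0.16 over genes from 1 to 10 CPM and 0.13 over genes from 10 to 100 CPM. For 9 of the 10 members the error was above the median of its level class, and Cxcl10 was the exception at 0.158 against 0.162. After Ccl7 the largest errors were 0.33 for Cxcl1, 0.31 for Ccl28 and 0.29 for Ccl2. Counting error and the authors' dispersion enter this value together, and it cannot show which mouse was high or low.

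**Figure D3:**
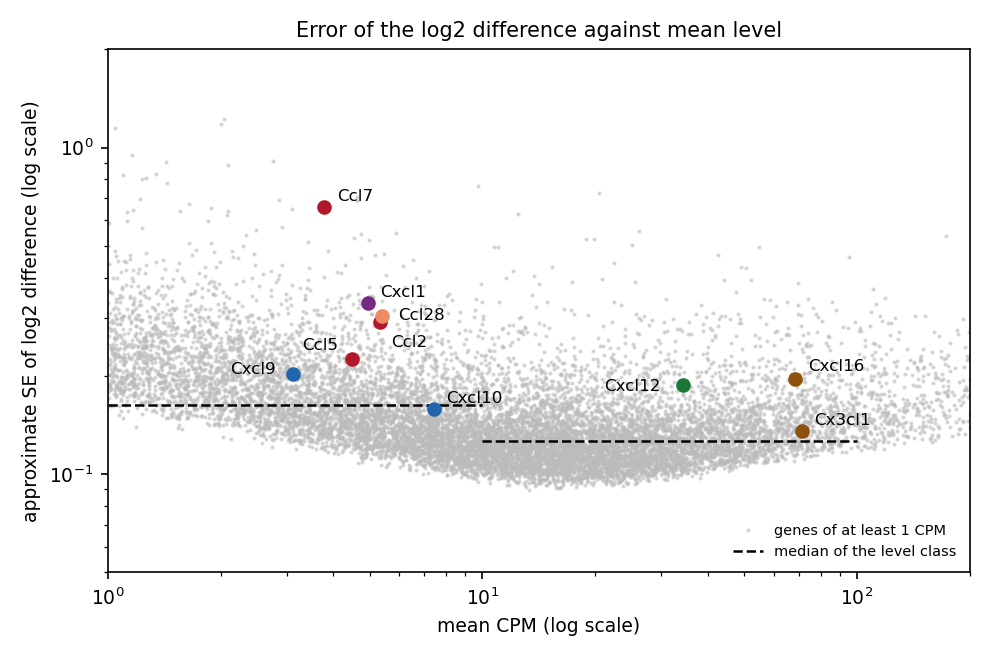
Approximate standard error of the log2 difference against mean CPM, both on log axes, for genes from 1 to 200 CPM in grey and the 10 chemokines in colour. Dashed lines are the medians of genes from 1 to 10 CPM (0.16) and from 10 to 100 CPM (0.13). Ccl7 lies highest at 0.66, and Cxcl10 is the 1 member below its line.

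Receptors of these chemokines were present at very different levels, and none was called, against 6 of all 27876 genes. Of 17 chemokine receptor genes 8 reached 1 CPM. The list had 9 positive signs, 7 negative ones and 1 value of 0, and its median log2 difference was 0.10. At an unadjusted p under 0.05 it held 3 positive genes (Cxcr6, Ccr7 and Ccr3) and 1 negative (Ccr8), or 23.5% of 17, against 5.12% of all genes. Ccr3 and Ccr8 were scarce, with means of 0.0591 and 0.0907 CPM by the authors' deposited table. Ccr2, the receptor of Ccl2 and Ccl7, stood at 0.14 (interval -0.29 to 0.58) and 32.5 CPM, by the authors' deposited table. Ccr1, which binds Ccl5 and Ccl7, had a log2 difference of -0.44 (-1.25 to 0.38) at 4.09 CPM, by the authors' deposited table. Cx3cr1, the fractalkine receptor of resident macrophages, stood at -0.10 (-0.59 to 0.38) and 21.0 CPM in the authors' deposited table.

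Among lymphocyte receptors, Cxcr6, the receptor of Cxcl16 on T cells and NKT cells, had the smallest p of the receptor list. By the authors' deposited table (edgeR's likelihood-ratio test) it had a mean of 1.22 CPM and a log2 difference of 0.62 (interval 0.16 to 1.08), with p = 0.00876, adjusted 0.699. Ccr7, which guides lymphocytes and dendritic cells to lymph nodes, had a mean of 1.71 CPM and a log2 difference of 0.94 (0.23 to 1.66), with p = 0.00961, adjusted 0.707, by the authors' deposited table. Neither passed over all transcripts. Cxcr3, the receptor of Cxcl9 and Cxcl10, stood at 0.30 (-0.22 to 0.82) and 1.08 CPM in the authors' deposited table. The Cxcl12 receptors Cxcr4, at 4.57 CPM, and Ackr3, at 21.7 CPM, had log2 differences of 0.10 (-0.31 to 0.52) and -0.18 (-0.49 to 0.13) in the authors' deposited table.

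The remaining receptors of the 10 chemokines were scarce. Cxcr2, the receptor of Cxcl1, had a log2 difference of -1.27 at 0.770 CPM, with p = 0.0774, by the authors' deposited table, and its sign was opposite to that of Cxcl1. Ccr3 (2.88 at 0.0591 CPM, p = 0.0195) and Ccr10 (-0.57 at 0.0547 CPM, p = 0.406), which bind Ccl28, were close to the lowest mean level in the authors' deposited table, 0.0201 CPM. Of the 5 genes listed as atypical receptors, most of which bind chemokines without the usual signal, 3 had a positive sign. Those of smallest p were Ackr3, given above, and Ackr2 (0.41 at 0.233 CPM), while Ackr1 stood at 0.20 and 0.235 CPM in the authors' deposited table.

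**Figure D4:**
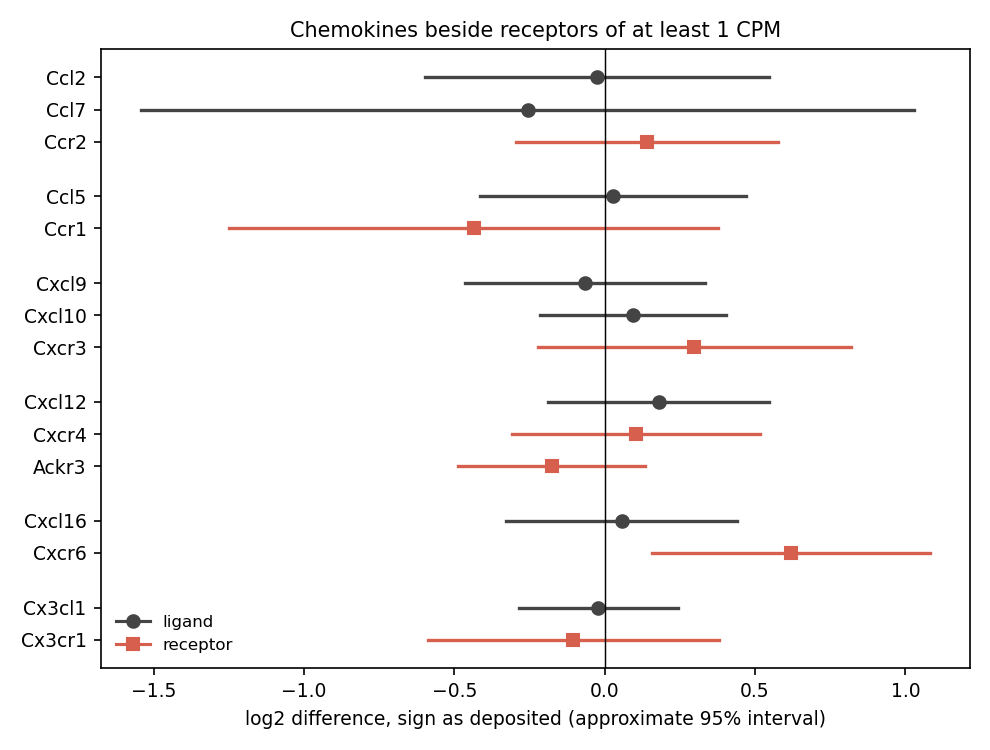
Log2 difference with its approximate 95% interval for 8 chemokines (circles) and 7 receptors of at least 1 CPM that bind them (squares), with the sign as deposited and each ligand group above its receptors. All intervals include 0 except that of Cxcr6, at 0.16 to 1.08, whose adjusted p was 0.699.

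Genes of pathways that regulate or process chemokines were likewise not called, against 6 called of all 27876 genes. None of these 35 had an unadjusted p under 0.05 in the authors' likelihood-ratio test, against 5.12% of all genes. Of 15 genes of NF-kappaB signalling and its inducers, which drive Ccl2, Cxcl1 and Ccl5, 9 were positive, and the median log2 difference was 0.029. Tnf (-0.63 at 0.980 CPM, p = 0.101) and the NF-kappaB inhibitor Nfkbia (0.24 at 26.1 CPM, p = 0.180) had the smallest p of this list in the authors' deposited table. Interferon gamma signalling drives Cxcl9 and Cxcl10, and the list for its axis also holds other targets, such as Ciita. This interferon gamma list had 8 positive genes of 12 and a median of 0.025. It was led in the authors' deposited table by the receptor gene Ifngr1 (0.16, p = 0.203) and the MHC class II activator Ciita (-0.18, p = 0.269). Of 8 genes that cut chemokines or control such proteases, 3 were positive, with a median of -0.047. They were led in the authors' deposited table by Dpp4, which trims the amino terminus of Cxcl12 and Cxcl10 (-0.075, p = 0.484), and the gelatinase gene Mmp2 (0.14, p = 0.506). Over all 27876 genes 57.9% had a positive sign and the median was 0.045. Most genes of these lists reached 1 CPM (12 of 15, 11 of 12 and 8 of 8). Over all genes of at least 1 CPM 71.8% had a positive sign and the median was 0.077.

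Markers of the leukocytes that make or follow these chemokines differed widely in level. None was called, against 6 of all 27876 genes. For comparison, 57.9% of all genes and 71.8% of genes of at least 1 CPM had a positive sign. The 10 monocyte and macrophage markers ranged from 0.536 CPM for Ly6c2 to 162 CPM for Lyz2 in the authors' deposited table. They had 7 positive signs and a median log2 difference of 0.024, led in the authors' deposited table by Cd14 (0.32, p = 0.128) and Cd68 (0.21, p = 0.261). The 8 T cell markers had 4 positive signs and a median of 0.013, led in the authors' deposited table by Cd3e (0.54 at 0.640 CPM, p = 0.0887) and Cd3d (0.22 at 1.90 CPM, p = 0.447). Of 7 neutrophil markers 1 was positive, 3 were negative and 3 were listed at 0, led in the authors' deposited table by S100a9 (-0.52 at 2.84 CPM, p = 0.189) and Retnlg (0.79 at 0.0751 CPM, p = 0.447). The 3 listed at 0 are Ly6g, Mpo and Elane, and their means were 0.0338, 0.0250 and 0.0206 CPM in the authors' deposited table, near its lowest level. Mpo and Elane are transcribed mainly in neutrophil precursors of the marrow. In this list 3 markers reached 1 CPM in the authors' deposited table. They were S100a9, S100a8 (-0.37 at 2.14 CPM) and Csf3r (-0.021 at 4.42 CPM). Ly6g and Retnlg, like Mpo and Elane, did not reach it.

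Markers of NK and B cells were mostly scarce, and none was called, against 6 of all 27876 genes. Among 6 NK cell markers 5 were positive, with a median of 0.20, led in the authors' deposited table by Klrb1c (1.00 at 0.262 CPM, p = 0.00376, adjusted 0.590) and Nkg7 (-0.29 at 1.06 CPM, p = 0.270). All 6 B cell markers were positive, with a median of 0.38, led in the authors' deposited table by Pax5 (1.37 at 0.106 CPM, p = 0.00957, adjusted 0.707) and Cd79b (0.43 at 1.44 CPM, p = 0.0868). In each of these lists of 6 genes 1 reached 1 CPM and 1 (16.7%) had an unadjusted p under 0.05, against 5.12% of all genes. A positive sign was held by 57.9% of all genes. The part of these cells in the chemokine values was not tested.

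The tissue label was matched by abundant epithelial markers, with, by the authors' deposited table, Slc34a1 of the proximal tubule at 1430 and Umod of the thick ascending limb at 1274 CPM. The 9 epithelial markers had 6 positive signs and a median of 0.18, led in the authors' deposited table by Nphs1 (0.31, p = 0.0596) and Aqp2 (0.27, p = 0.207). Endothelial markers, of a cell type that makes Cx3cl1 and Cxcl12, were positive in 6 of 6, with a median of 0.095, led in the authors' deposited table by Emcn (0.25, p = 0.108) and Kdr (0.19, p = 0.275). The 6 stromal markers had 2 positive signs and a median of -0.034, led in the authors' deposited table by Dcn (0.25, p = 0.143) and Acta2 (0.12, p = 0.440). None of these 21 genes was called, against 6 of all 27876 genes.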

How the data were processed

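RNA sequencing of 10 kidneys was used, 5 from the vehicle group and 5 from the quinolinic acid group, as their titles give it. The submitters' processing notes name FastQC (0.11.2), STAR (2.5.3a), featureCounts, Subread (1.4.6) and edgeR, the last used by the authors, with the mm10 build. Annotation release, filters and strand setting are not given in the sources used here. Deposited for each GENCODE transcript, per the file headers, are log2 values (fold change and mean CPM), a likelihood-ratio score, a p-value and an adjusted p-value. This finished comparison replaced the planned test on counts, and calls use an adjusted p under 0.05 as deposited.

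Identifiers without version were looked up in GENCODE vM21, where 83446 of 85107 (98.0%) matched, and the transcript of highest mean CPM stands for each gene. Of the 22 chemokine transcripts 13 had the same version in vM21. Lengths and positions are those of vM21, and for the others they may differ from the transcript that was counted. The approximate standard error is the size of the log2 difference over the root of the likelihood ratio, checked on simulated counts of known dispersion. The trend on log2 length and mean level was removed by loess (span 0.5) in R 4.3.3. Other steps used Python 3.11.15, numpy 2.4.6, pandas 2.3.3, scipy 1.17.1 and matplotlib 3.10.9.

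Named are the 10 members, the receptors that bind them, and of each further list the 2 genes of smallest p. One receptor gene is not reported here and was left out of the counts. Adam10, Adam17, Ccr8, Ly6c2, Lyz2, S100a8, Csf3r, Ly6g, Mpo, Elane, Slc34a1, Umod, Art3 and Zmynd15 were added after their values were seen. The members and lists were chosen with earlier results of these data known. Alternatives were another transcript per gene, the trend removed, a filter at 1 CPM and other thresholds.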

Additional observations from a re-analysis of the deposited data

How the results depend on the processing

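The count of called chemokine genes was 0 under each of the 7 alternatives that were run: the coding transcript, the transcript of smallest p, the length and level trend removed, genes of at least 1 CPM, an adjusted p under 0.1, an unadjusted p under 0.05, and adjustment over 1 transcript per gene. In each alternative that kept the deposited p, this outcome was fixed in advance. The smallest unadjusted p of the 22 transcripts was 0.0554 (likelihood-ratio test), and the smallest adjusted p was 0.794. Only the removal of the trend could have given another count. With the trend removed, 2 of 10 genes had a positive sign in place of 5. Signs turned for Ccl5 (-0.20), Cxcl10 (-0.070) and Cxcl16 (-0.037) with the trend removed, and for Ccl2 (0.059) with the coding transcript, which is also its transcript of smallest p. None of these values was past a threshold. No paired analysis was possible because the values are a finished comparison without values per library. For the same reason leaving out single replicates and DESeq2 were not run. Depth per library is unknown, and the smallest difference that could have been called was not worked out.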

Other observations

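The 25 other chemokine ligands measured had 19 positive and 6 negative signs and a median log2 difference of 0.19, against 0.045 over all genes. They are short, with a median length of 1082 nt against 2024 nt over all genes, and with the length and level trend removed their median was 0.026. None was called in the authors' likelihood-ratio test (edgeR), against 6 of all 27876 genes. At an unadjusted p under 0.05 there were 2 positive and 1 negative (12% of 25, against 5.12% of all genes). These were Cxcl3, a neutrophil attractant (3.17 at 0.239 CPM, p = 0.0103), Cxcl13, which draws B cells (1.32 at 0.117 CPM, p = 0.0189), and Ccl20, the ligand of Ccr6 (-2.03 at 2.10 CPM, p = 0.0212), in the authors' deposited table.

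Among other ligands that share the receptor Cxcr2 with Cxcl1, Cxcl2, Cxcl3 and Cxcl5 had a positive sign and Ppbp a negative one (-0.37 at 0.299 CPM, p = 0.307) in the authors' deposited table. Cxcl5 stood at 1.33 (interval -0.17 to 2.82) and 9.75 CPM, with p = 0.0822, and Cxcl2 at 0.37 (-0.90 to 1.64) and 3.10 CPM, by the authors' deposited table. Ccl8 and Ccl12, which lie in the same gene cluster as Ccl2 and Ccl7, had log2 differences of 0.71 (-0.22 to 1.63) and -0.24 (-1.005 to 0.53) in the authors' deposited table. Ccl11 and Ccl1, of the same cluster and scarcer, stood at -0.040 (-0.96 to 0.88) and -2.03 (-4.13 to 0.073) by the authors' deposited table. Ccl20, Cxcl2, Cxcl5, Ppbp, Ccl8, Ccl12, Ccl11 and Ccl1 were named after their values were seen, and none passed.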
